A study of Mus musculus with 4 samples.

Results

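Type I interferon response genes are the genes that a cell switches on after interferon-α or interferon-β binds its receptor. The 38 members described here were a list of symbols taken as given, and all 38 of the 33696 genes in the count matrices matched, each with counts in both libraries. They were followed across the endothelial, myeloid, B, NK, αβ T and γδ T cells of mouse liver, with the level of a cell class given as counts per 1000000 of all its counts (CPM), and that of a cell as member counts per 10000 of its counts.

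The single-cell libraries came from the liver of mice aged 2 months with the alleles *Stab2-CrexERT2* and *R26-LSL-tdT* (genotype label S2), sorted for CD45+ cells. Tamoxifen had been given at E9.5. Cre, inserted at the endogenous *Stab2* locus, had been active in labelled cells or their ancestors, so tdTomato also marks any adult cell type in which *Stab2* drove recombination at that time, and sinusoidal endothelium expresses *Stab2* throughout life. One library held tdTomato+ cells (TMT_positive, batch 1) and one held the control cells (batch 2), labelled only as CD45+ liver cells and sorted as tdTomato- in the study. Both groups carried the same alleles and treatment, and no label separates animals within a library. With 1 library per sort, sort and batch cannot be told apart, and no test of a difference was possible. The 95% intervals given here cover counting error only, or, for shares of cells, the drawing of cells within a library.

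Interferon binding to its receptor activates the kinases JAK1 and TYK2 at the cell membrane. A complex that holds STAT2 and IRF9 then binds the interferon-stimulated response element, a short repeat of GAAA in the promoters of target genes. The targets include sensors and blockers of viral RNA, regulators that feed back on the pathway and effectors that modify proteins, and Kupffer cells and sinusoidal endothelium of the liver are in constant contact with microbial products from the gut. Interferon-γ, made by T and NK cells, acts through a receptor of its own, and many of the genes respond to both kinds of interferon.

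RefSeq promoter windows (GRCm38.p6, 250 bases before to 50 after a start site) were matched by symbol for 28 of the 38 members. The 10-base pattern GAAANNGAAA, searched on both strands (TTTCNNTTTC on the other) with overlapping matches counted, was present in 14 of those 28 genes (50%) and in 3.99% of all 27025 genes with a window. It was also present in 10 of 15 genes (66.7%) from a list of targets that respond mainly to interferon-γ, and in 4 of 10 interferon genes (40%). Of the members 6 had at least 2 matches. The stretches below show the repeat in promoters of genes on which later comparisons turn, 5′ to 3′ on the strand of the gene, with matches in capitals. *Isg15* (ENSMUSG00000035692, chr4:156200860-156200911, minus strand), *Ifit1* (ENSMUSG00000034459, chr19:34640770-34640828, plus), *Ifit3* (ENSMUSG00000074896, chr19:34583358-34583431, plus), *Oas1a* (ENSMUSG00000052776, chr5:120907526-120907560, minus), *Rsad2* (ENSMUSG00000020641, chr12:26456548-26456587, minus), *Slfn5* (ENSMUSG00000054404, chr11:82951932-82951971, plus), *Bst2* (ENSMUSG00000046718, chr8:71537572-71537617, minus) and *Phf11b* (ENSMUSG00000091649, chr14:59341356-59341395, minus) are all shown upstream of the annotated start site.
Isg15: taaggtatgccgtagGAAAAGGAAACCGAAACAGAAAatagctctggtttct
Ifit1: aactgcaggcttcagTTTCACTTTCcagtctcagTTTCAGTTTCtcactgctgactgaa
Ifit3: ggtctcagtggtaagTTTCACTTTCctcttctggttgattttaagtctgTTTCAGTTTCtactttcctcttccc
Oas1a: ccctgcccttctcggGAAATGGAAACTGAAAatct
Rsad2: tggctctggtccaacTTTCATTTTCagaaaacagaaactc
Slfn5: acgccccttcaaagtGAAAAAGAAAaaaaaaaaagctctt
Bst2: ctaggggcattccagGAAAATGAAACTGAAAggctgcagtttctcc
Phf11b: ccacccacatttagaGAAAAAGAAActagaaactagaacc
In *Isg15* the matches overlapped into 1 run, whereas in *Ifit1* and *Ifit3* a pair stood apart on the opposite strand. A match of letters is not a measured binding site.

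**Figure D1:**
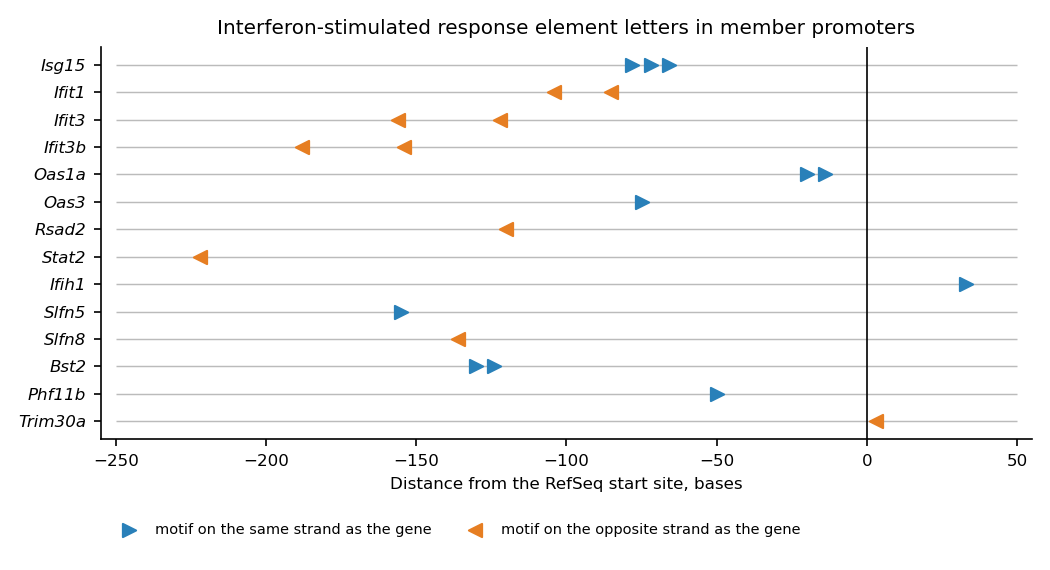
Positions of GAAANNGAAA matches in the 14 member promoters that hold one, in bases from the RefSeq start site (x axis, 1 gene per row), with arrowheads pointing right for matches on the strand of the gene and left for the other strand. Matches in 12 genes lie before the start site, while those of *Ifih1* and *Trim30a* lie after it.

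The tdTomato+ library held 203366009 counts in 17957 barcodes and the tdTomato- library 156771260 in 18444, and 84 barcode sequences occurred in both. Clusters were named from marker lists that hold none of the members, and the members were kept out of the genes used for clustering. Despite the CD45 gate, 6350 tdTomato+ cells were endothelial-like, against 22 tdTomato- cells, and a further 3694 tdTomato+ cells in clusters that expressed *Cd3e* carried endothelial RNA and were kept apart as mixed. Within the named immune classes, 947 tdTomato+ and 9 tdTomato- cells with at least 30 counts of 10 endothelial markers per 10000 were set aside before the comparisons. Classes compared between libraries needed 50 cells in each, and 9 met this.

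Plasmacytoid dendritic cell-like (pDC-like), monocyte-like, neutrophil-like and macrophage-like cells had the highest summed levels of the 38 genes in the tdTomato+ library, endothelial-like cells lay below them, and cDC1-like cells and lymphocytes lay lowest. In the tdTomato+ library the level was 8223 CPM (8059 to 8390) in 90 pDC-like cells, 7382 CPM (7302 to 7462) in 306 monocyte-like cells, 6862 CPM (6669 to 7059) in 116 neutrophil-like cells and 6766 CPM (6714 to 6818) in 648 macrophage-like cells. The order of the 4 in the tdTomato- library was pDC-like (6431 CPM), monocyte-like (4935 CPM), macrophage-like (4589 CPM) and neutrophil-like (2950 CPM), with 22 endothelial-like cells at 3788 CPM. Neutrophil-like and macrophage-like cells, neighbours in the tdTomato+ order, had overlapping intervals there, and all other steps exceeded counting error. The place of pDC-like cells rested on *Bst2*, which supplied 60.4% (tdTomato+) and 63.1% (tdTomato-) of their member counts. With members weighted alike, as the mean of log2(CPM + 1), tdTomato+ pDC-like cells (5.03) lay below monocyte-like (6.94), macrophage-like (6.83) and neutrophil-like cells (6.30). They also lay below αβ T-like cells by this measure (5.32), as in the tdTomato- library (4.61 and 4.95).

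The 4 endothelial clusters, measured in the tdTomato+ library alone, lay between 3999 and 5101 CPM. The cluster led by *Lyve1* and *Msr1*, markers of sinusoidal endothelium, was highest at 5101 CPM (5072 to 5131), followed by the cluster led by *Adgrg6* and *Jag1* at 4905 CPM, the cluster led by *Rspo3* and *Vwf* at 4640 CPM, and the cluster led by *Wnt2* and *Kit* at 3999 CPM (3971 to 4026). In all 4, *Bst2*, which tethers budding virus particles to the cell surface, took 30.6% to 34.9% of the member counts and *Slfn5* came next. Each count is 1 molecule tagged at its end, so shares of counts do not scale with transcript length.

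Among lymphocytes, Treg-like cells stood highest, with 3757 CPM (3682 to 3833) among tdTomato+ cells, against 2999 CPM (2937 to 3061) without tdTomato. *Ifi27l2a*, a small mitochondrial protein gene induced by interferon, supplied 38.1% and 37.0% of these counts. B cell-like cells held 1718 and 1528 CPM, and NK-like cells 1816 and 1260 CPM. Of the γδ T-like kinds in the tdTomato- library, naive-like cells (marked by *Lef1*, *Tcf7* and *Ccr7*) held 1777 CPM, Gzmk-like 1649 CPM, Ncr1-like 1453 CPM, Il17a-like 1081 CPM and cycling cells 892 CPM, with no overlap between intervals of neighbours. A subcluster with little *Trdc*, which encodes the δ chain, was kept out of the γδ T-like class.

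**Figure D2:**
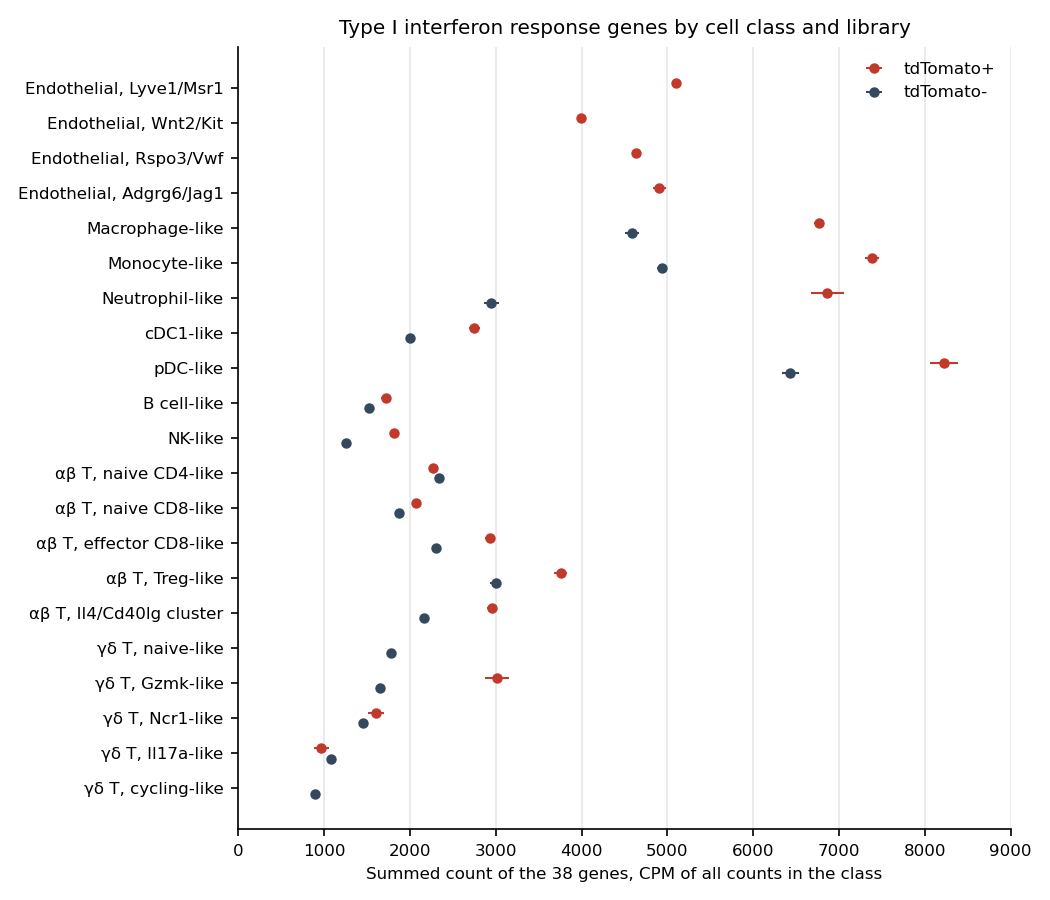
Summed level of the 38 genes (x axis, CPM of all counts in the class) for each cell class (y axis) with at least 50 cells, in tdTomato+ (red) and tdTomato- (blue) cells, with 95% Poisson intervals. The red point lies to the right of the blue one in all classes measured in both libraries except naive CD4-like αβ T and Il17a-like γδ T cells.

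The members differed in where they were highest. Over 19 classes of the tdTomato- library, 13 members peaked in macrophage-like cells, 11 in monocyte-like cells, 6 in pDC-like cells and 4 in neutrophil-like cells. Over 21 classes of the tdTomato+ library, neutrophil-like cells held the peak of 13 members, macrophage-like cells of 7, monocyte-like cells of 5, pDC-like cells of 5 and endothelial clusters of 5. *Bst2*, also known as a surface antigen of mouse pDCs, stood at 4968 and 4057 CPM in tdTomato+ and tdTomato- pDC-like cells, against 72 and 43 CPM in neutrophil-like cells. It made up 60.4% and 63.1% of all member counts in pDC-like cells.

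*Irf7*, the factor that amplifies interferon production, was likewise high in pDC-like cells (523 and 397 CPM), and reached 504 and 293 CPM in monocyte-like cells. The IFIT family binds foreign RNA. In pDC-like cells *Ifit2* stood at 29.3 and 19.2 CPM, and *Ifit3* had 1 tdTomato+ count (0.863 CPM) and 3 tdTomato- counts (1.15 CPM), against 136 and 68.6 CPM in macrophage-like cells. *Ifi44* peaked in endothelial cells of the tdTomato+ library, with 125 CPM in the *Lyve1* cluster, beside 67.3 CPM in pDC-like and 46.0 CPM in macrophage-like cells there. Over the classes of the tdTomato- library, which include no endothelial cluster, it peaked in pDC-like cells (35.7 CPM), with 12.8 CPM in macrophage-like cells. *Slfn1*, a Schlafen gene known to restrain T cell growth, was highest in neutrophil-like cells (617 and 422 CPM) and stood at 225 CPM in tdTomato- naive CD4-like T cells. *Mx1* and *Mx2*, of a family of GTPases known for blocking viral replication, had no count in tdTomato+ neutrophil-like cells, which allows up to 4.29 CPM, and 8 and 5 counts in tdTomato- ones.

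Pairs of near-identical genes were present on the list and off it. Counts of *Ifit3* and *Ifit3b*, of *Slfn8* and its neighbour *Slfn9*, of *Oas1a* and *Oas1g*, of *Phf11b* and its paralogues, and of *Ifi27l2a* and *Ifi27l2b* may have been divided between copies or discarded where reads matched more than 1 gene, so single values of these members are uncertain.

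**Figure D3:**
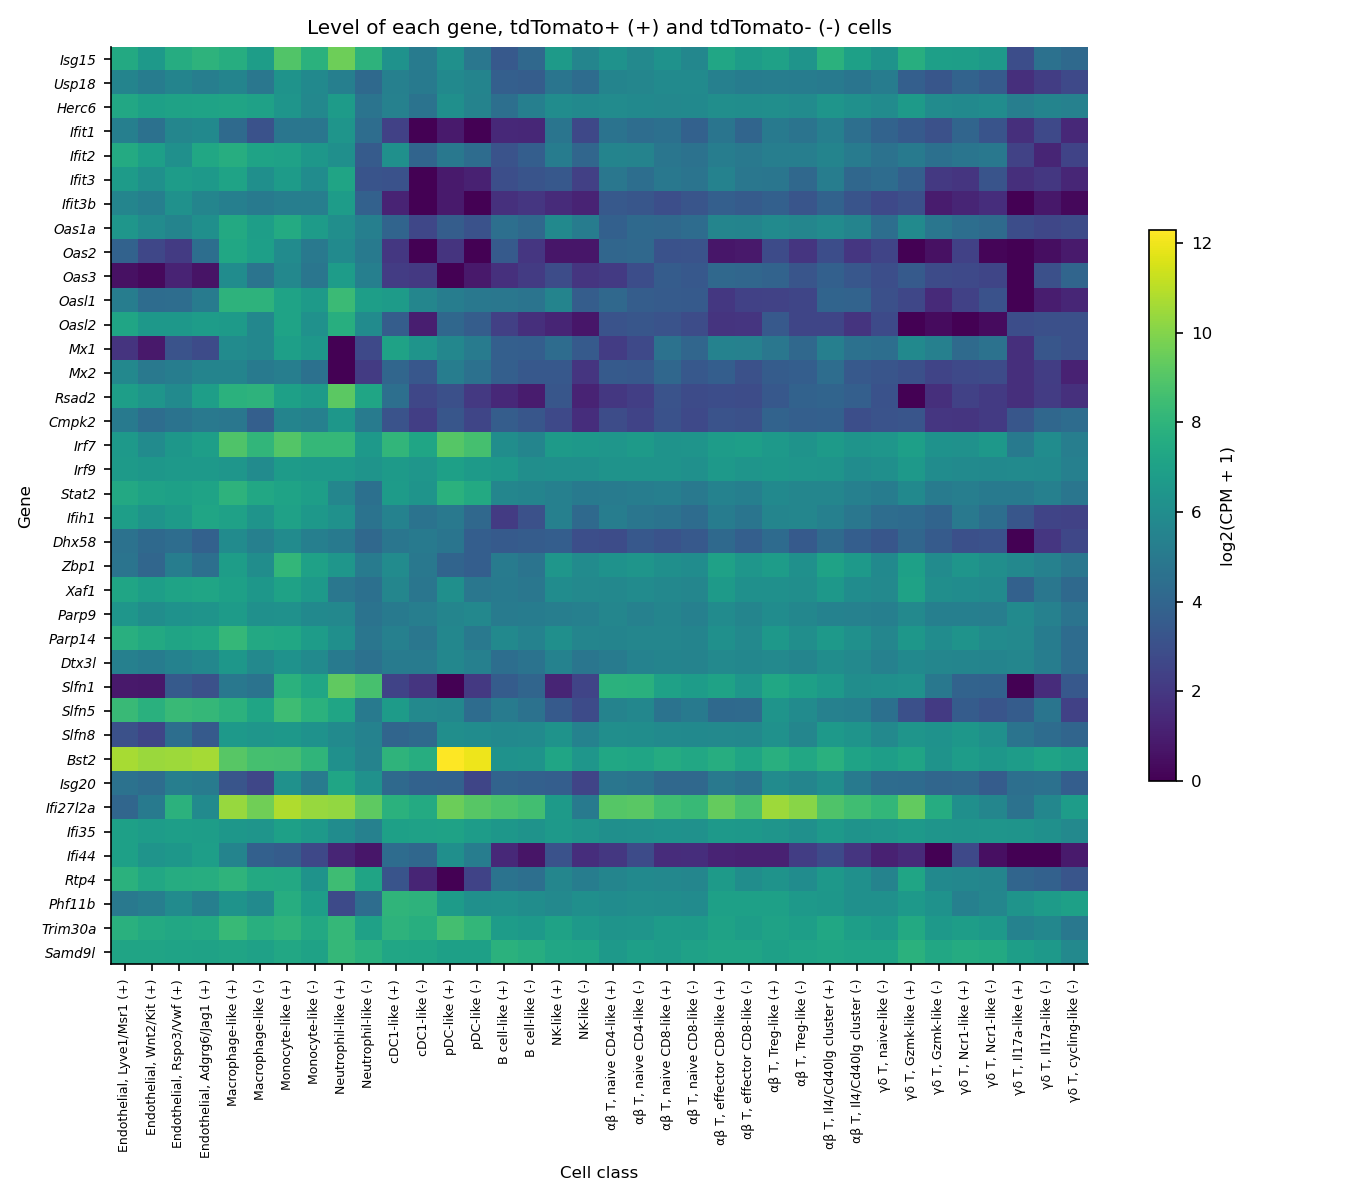
Level of each of the 38 genes (rows, in order of role) in each class and library (columns, + for tdTomato+ and - for tdTomato-), as log2(CPM + 1) by color. *Bst2* in pDC-like and endothelial cells and *Ifi27l2a* in monocyte-like, macrophage-like and Treg-like cells are the brightest, and the IFIT and OAS rows darken from myeloid to lymphoid columns.

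The tdTomato+ to tdTomato- ratio of the summed level was above 1 in all 9 classes compared. It was 2.33 (2.23 to 2.42) in neutrophil-like, 1.50 (1.47 to 1.52) in monocyte-like, 1.47 (1.45 to 1.50) in macrophage-like, 1.44 (1.37 to 1.52) in NK-like, 1.37 (1.33 to 1.42) in cDC1-like, 1.30 (1.28 to 1.31) in αβ T-like, 1.28 (1.25 to 1.31) in pDC-like, 1.25 (1.21 to 1.29) in γδ T-like and 1.12 (1.07 to 1.18) in B cell-like cells. The median log2 ratio of the measured members (at least 10 CPM in 1 library) ranged from 0.17 in B cell-like to 1.16 in neutrophil-like cells, beside medians of all measured genes between -0.05 and 0.04. In monocyte-like cells 36 of 38 measured members had a ratio above 1, against 44.8% of all measured genes, and in αβ T-like cells 31 of 32, against 40.4%.

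Members at least 2-fold higher in tdTomato+ cells, out of those measured, numbered 22 of 35 in neutrophil-like cells, where 6.77% of all measured genes were. The counts were 5 of 38 in monocyte-like cells (all genes 1.06%), 5 of 37 in macrophage-like cells (0.837%), 7 of 28 in NK-like cells (1.98%), 7 of 30 in cDC1-like cells (2.12%), 5 of 29 in pDC-like cells (1.37%), 1 of 30 in B cell-like cells (1.75%), 0 of 32 in αβ T-like cells (0.616%) and 1 of 27 in γδ T-like cells (2.49%). One member, *Phf11b* in neutrophil-like cells, was at least 2-fold lower, where 7.96% of all genes were. No member was 2-fold lower elsewhere, with all-gene shares of 3.59% in monocyte-like, 3.72% in macrophage-like, 1.88% in NK-like, 1.52% in cDC1-like, 2.93% in pDC-like, 4.93% in B cell-like, 0.533% in αβ T-like and 0.632% in γδ T-like cells.

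**Figure D4:**
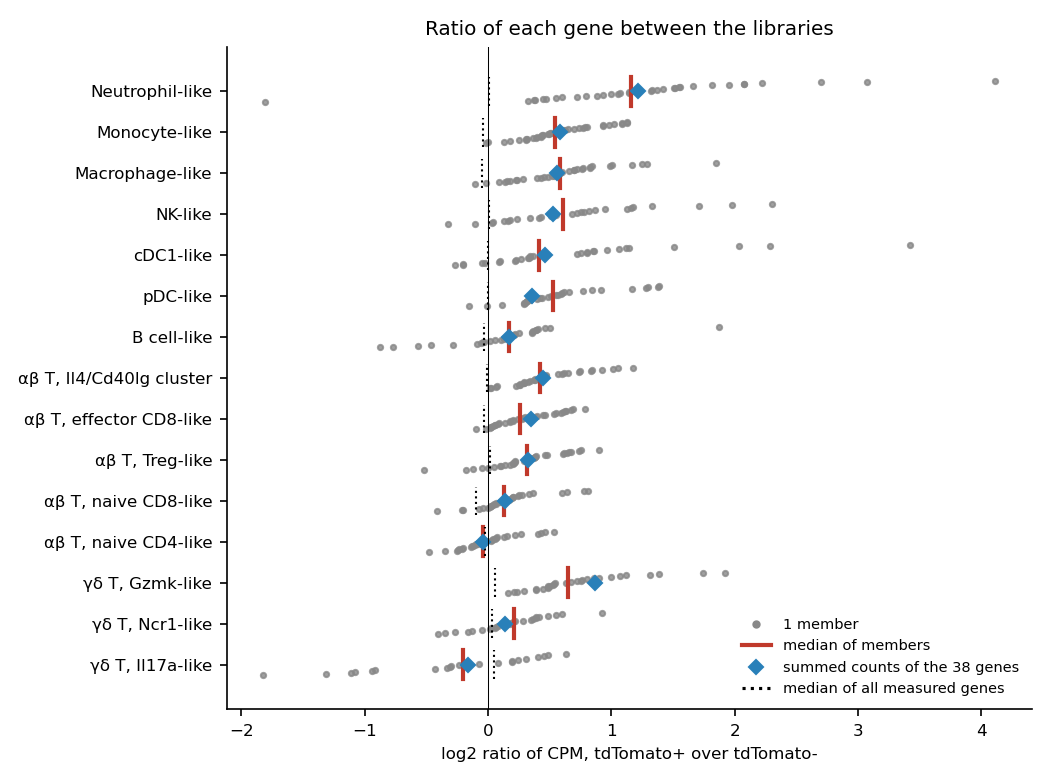
log2 ratio of CPM, tdTomato+ over tdTomato- (x axis), of each measured member (grey points) in each class (y axis), with the median of the members (red bar), the ratio of the summed counts (blue diamond) and the median of all measured genes (dotted line). The red bars lie right of the dotted lines except in naive CD4-like αβ T and Il17a-like γδ T cells, and the spread is widest in neutrophil-like cells.

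Neutrophil-like cells differed most. The 4 IFIT genes together stood at 405 and 51.7 CPM in the respective libraries, a ratio of 7.84 (6.06 to 10.2). *Ifit3* had 100 counts in tdTomato+ neutrophil-like cells (143 CPM) and 12 in tdTomato- ones (8.27 CPM), a ratio of 17.3 (9.48 to 34.6). *Isg15*, a ubiquitin-like modifier, was at 762 and 241 CPM, a ratio of 3.16 (2.75 to 3.62), and *Rsad2*, which encodes the antiviral enzyme viperin, was at 578 and 150 CPM, a ratio of 3.87 (3.27 to 4.58). *Phf11b*, the exception, had 4 and 29 counts. All role groups other than the Mx GTPases were higher, from 1.66 for the Schlafen family to 7.84 for the IFIT family.

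The makeup of the class was compared as well. *Camp* was at 9973 and 10899 CPM and *Cxcr2* at 875 and 942 CPM in tdTomato+ and tdTomato- neutrophil-like cells, whereas *Siglecf* was at 28.6 and 7.58 CPM, and *Mmp8* was at 988 and 846 CPM, with a count in 33.6% and 53.8% of cells. The part of these differences in the module ratio was not tested beyond the following values. Among cells without a *Camp* count the summed level was 9615 CPM (97 tdTomato+ cells) and 4014 CPM (173 tdTomato- cells), and among cells with *Camp* it was 2802 CPM in 19 and 1604 CPM in 35 cells. The 10 endothelial markers summed to 521 and 75.8 CPM in neutrophil-like cells of these libraries, and haemoglobin genes to 14.3 and 5020 CPM. With haemoglobin, ribosomal protein and mitochondrial genes left out of the totals, the log2 ratio was 1.20, beside 1.22 with them. In 98 tdTomato+ and 205 tdTomato- neutrophil-like cells with under 10 endothelial marker counts per 10000, the levels were 7368 and 2925 CPM. The cluster held 327 tdTomato+ and 208 tdTomato- cells before any were set aside. The 211 tdTomato+ cells with 30 or more endothelial marker counts, which were set aside, stood at 5028 CPM.

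In monocyte-like cells *Isg15* stood at 488 and 230 CPM (ratio 2.12, 1.98 to 2.27), and *Zbp1*, a sensor of left-handed nucleic acid, at 277 and 130 CPM (2.13, 1.94 to 2.33). *Rtp4*, *Isg20* and *Ifi44* were the other members past 2-fold. *Ifit1* (0.99, 0.77 to 1.26) and *Ifit3b* (1.00) were the members without a ratio above 1. The makeup of the class differed between libraries. Of the markers of classical monocytes, *Ly6c2* stood at 1948 and 1206 CPM (78.8% and 81.5% of cells), *F13a1* at 504 and 678 CPM and *Ccr2* at 574 and 642 CPM. *Ace*, which marks patrolling monocytes, stood at 213 and 101 CPM. The module ratio was 1.66 among cells without an *Ace* count (160 and 266 cells) and 1.28 among those with one (146 and 107 cells).

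Macrophage-like cells, which expressed the Kupffer markers *Clec4f* (5626 and 4405 CPM) and *Timd4* (712 and 585 CPM), showed the difference in most role groups. The summed viperin locus had a ratio of 1.00 (0.91 to 1.09), but its genes *Rsad2* and *Cmpk2* differed from each other. *Ccr2* and *Cx3cr1*, which mark monocyte-derived cells, stood at 10.6 and 34.3 CPM and at 19.7 and 59.8 CPM in the class. *Irf7* was at 481 and 269 CPM (ratio 1.79, 1.65 to 1.94), *Ifi27l2a* at 1326 and 778 CPM (1.70, 1.63 to 1.79) and *Ifi44* at 46.0 and 12.8 CPM (3.61, 2.52 to 5.34). *Cmpk2* was at 27.8 and 12.4 CPM (2.25, 1.55 to 3.38). *Rsad2*, in contrast, was at 225 and 242 CPM (0.93, 0.85 to 1.02) and *Oasl1* at 245 and 248 CPM (0.99, 0.90 to 1.08). The ratio of *Rsad2* was thus 3.87 in neutrophil-like and 0.93 in macrophage-like cells, with intervals that did not overlap.

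Dendritic cells also differed. In cDC1-like cells *Ifit2* had 217 tdTomato+ and 42 tdTomato- counts (71.1 and 14.5 CPM), and *Rsad2* 65 and 15 counts (21.3 and 5.19 CPM). *Irf7* there was at 269 and 149 CPM. In pDC-like cells the abundant *Bst2* had a small ratio (1.22, 1.19 to 1.26), whereas *Isg15* had 2.46 (1.77 to 3.42), *Xaf1*, which is known to promote apoptosis, 2.43 (1.75 to 3.39) and *Slfn5* 2.61 (1.76 to 3.89). Leaving *Bst2* out of the sum moved the log2 ratio of pDC-like cells from 0.35 to 0.46.

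In NK-like cells *Ifi27l2a* stood at 104 and 31.6 CPM (3.28, 2.42 to 4.53), *Oasl1* at 45.1 and 11.4 CPM (3.94, 2.40 to 6.91) and *Isg15* at 101 and 46.4 CPM (2.18, 1.69 to 2.85). The makeup of the class differed between libraries. *Eomes*, which distinguishes NK cells from the related type 1 innate lymphoid cells, stood at 84.3 and 271 CPM (tdTomato+ first), and *Cxcr6*, a receptor of the latter, at 351 and 184 CPM. Within cells that had a *Cxcr6* count the module ratio was 1.27, and within those that had none 1.43. Under a stricter cell filter that split the class, the log2 ratio of the cells still named NK-like was 0.07, against 0.53 here.

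B cell-like cells had the smallest ratio of the 9 classes, and the role groups there differed in direction, from 0.64 (0.49 to 0.84) for the ISG15 system to 1.36 (0.76 to 2.41, an interval that covers 1) for the viperin locus, with the transcription factors at 1.27 (1.11 to 1.46). *Herc6*, the ligase that attaches ISG15 to proteins, stood at 21.0 and 38.5 CPM (ratio 0.55, 0.37 to 0.79). *Isg15* stood at 9.66 and 16.5 CPM, on 17 and 53 counts, and the interval of its ratio covered 1 (0.59, 0.32 to 1.03). *Oas2* stood at 10.2 and 2.80 CPM, on 18 and 9 counts (3.66, 1.56 to 9.25).

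Among αβ T-like cells the ratio depended on the kind. It was 1.36 (1.33 to 1.39) in the cluster led by *Il4* and *Cd40lg*, 1.27 (1.24 to 1.31) in effector CD8-like, 1.25 (1.22 to 1.29) in Treg-like and 1.10 (1.08 to 1.13) in naive CD8-like cells, and 1.47 (1.44 to 1.51) in the cluster led by cell cycle genes. In naive CD4-like cells it was 0.97 (0.95 to 1.004, an interval that covers 1), with levels of 2274 and 2334 CPM in 541 tdTomato+ and 642 tdTomato- cells. Of 30 measured members there, 14 had a ratio above 1, near the 45.6% of all genes. All 35 members measured in the *Il4* and *Cd40lg* cluster had a ratio above 1, against 48.3% of all genes. The endothelial markers summed to 268 and 81.8 CPM over all αβ T-like cells.

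γδ T-like cells were few in the tdTomato+ library (268, against 7920), and their kinds differed. Gzmk-like cells had 3014 CPM (2875 to 3158) over 81 tdTomato+ cells and 1649 CPM (1628 to 1669) over 1981 tdTomato- cells, a ratio of 1.83 (1.74 to 1.92), and all 29 measured members had a ratio above 1, against 56.1% of all genes. Of these 7 were at least 2-fold higher, with *Xaf1* (1.999) among them only because 0.5 was added to each count for this call, where 3.66% of all genes were, and 0 at least 2-fold lower, where 2.66% were. The ratio of *Ifit3* was the largest, at 3.79 (1.45 to 8.42) on 7 and 48 counts. *Ifi27l2a* stood at 649 and 193 CPM (3.36, 3.01 to 3.74) and *Rtp4*, a receptor-transporting protein with antiviral activity, at 146 and 55.7 CPM (2.62, 2.07 to 3.28). Different subclusters held most of the Gzmk-like cells. Of the 81 tdTomato+ cells 57 lay in a subcluster led by *Trav13-5* and *Cd8b1*, whose *Trac* level exceeded its *Trdc* level, while that subcluster held 149 of 1981 tdTomato- cells. Within it the levels were 3463 and 2353 CPM, a ratio of 1.47 (1.38 to 1.58), and 26 of 31 measured members had a ratio above 1, against 55.5% of all genes. The values for all Gzmk-like cells thus compare unlike mixtures of subclusters.

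Ncr1-like γδ T cells had 1600 and 1453 CPM in 90 and 4008 cells, a ratio of 1.10 (1.04 to 1.17). Il17a-like cells, which produce interleukin-17, went the other way, with 967 CPM (879 to 1061) over 51 tdTomato+ cells, below the 1081 CPM (1059 to 1103) of 982 tdTomato- cells, a ratio of 0.89 (0.81 to 0.98). There 0 of 21 measured members were at least 2-fold higher (all genes 6.04%) and 4 were at least 2-fold lower (all genes 3.86%), on 3 to 11 tdTomato+ counts each. *Isg15* in Il17a-like cells had 3 tdTomato+ and 191 tdTomato- counts, a ratio of 0.28 (0.06 to 0.84). The makeup of these cells differed between libraries. Of the 51 tdTomato+ cells 37 lay in a subcluster led by *Trgv6* and *Scart1*. Of the 982 tdTomato- cells 657 lay in one led by *Scart2* and *Il17f*. The part of this split in the ratio was not tested. Among γδ T-like cells with a productive γ or δ contig 32 tdTomato+ cells had a level of 1637 CPM (1494 to 1789) and 1965 tdTomato- cells one of 1465 CPM (1448 to 1483).

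The summed endothelial markers were higher in tdTomato+ cells in all 9 classes, and their part in the module ratios was not tested beyond the following values. Members abundant in endothelium reached different levels in tdTomato+ lymphocytes. *Bst2* was at 1607 CPM in the *Lyve1* cluster, 150 CPM in NK-like and 186 CPM in αβ T-like cells. *Trim30a* was at 218, 135 and 118 CPM in the same order, and *Slfn5* at 315, 10.2 and 31.4 CPM. Of the members past 2-fold in NK-like cells, *Isg15* was at 172, *Ifit2* at 179 and *Ifih1* at 119 CPM in the *Lyve1* cluster. There *Ifit1* was at 38.4, *Oasl1* at 36.0 and *Isg20* at 23.7 CPM. *Ifi27l2a*, the remaining such member, ranged from 15.4 CPM in the *Lyve1* cluster to 237 CPM in the *Rspo3* and *Vwf* cluster. In macrophage-like cells with under 10 endothelial marker counts per 10000 the module stood at 6864 and 4443 CPM, and in tdTomato+ macrophage-like cells with 30 or more at 5426 CPM. In B cell-like cells the direction was opposite, with 1720 CPM in tdTomato+ cells under 10 and 3710 CPM in the 31 tdTomato+ cells with 30 or more.

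The difference between libraries was also present in single cells. The median cell of the macrophage-like class had 64.1 member counts per 10000 in tdTomato+ and 42.7 in tdTomato- cells, that of the monocyte-like class 53.8 and 35.1, and that of the neutrophil-like class 56.1 and 23.4. The medians were 22.6 and 18.4 in cDC1-like, 76.4 and 63.1 in pDC-like, 14.0 and 11.1 in NK-like, 13.2 and 11.4 in B cell-like, 19.3 and 15.9 in αβ T-like and 15.3 and 12.4 in γδ T-like cells. Median depth was alike in the paired classes with the largest ratios, at 4472 and 4627 counts per neutrophil-like cell and 13312 and 12660 per macrophage-like cell.

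**Figure D5:**
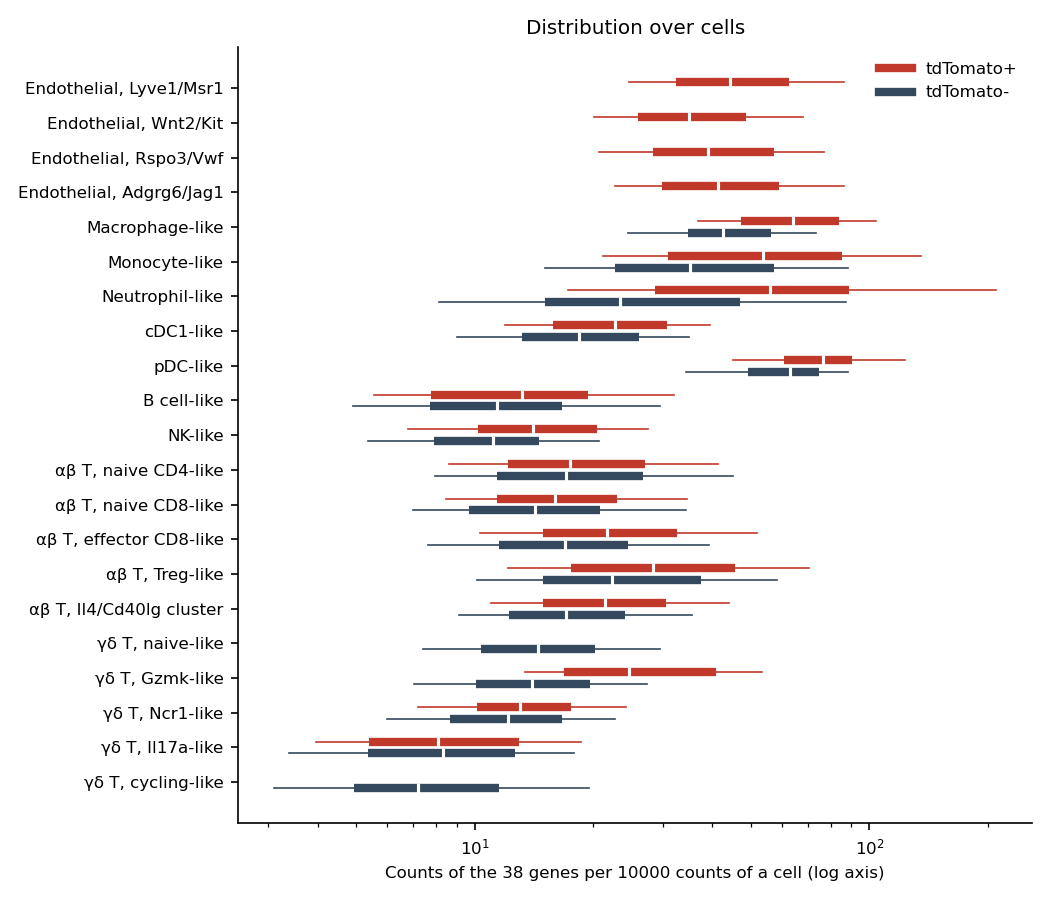
Member counts per 10000 counts of a cell (x axis, log scale) in each class (y axis), for tdTomato+ (red) and tdTomato- (blue) cells. White ticks mark medians, thick bars the middle of the distribution between its lower and upper quartile, and thin lines the span between the percentiles 10 and 90, and the red bars of macrophage-like, neutrophil-like and Gzmk-like γδ T cells are shifted as a whole.

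To compare spread at equal depth, each cell was thinned to 1000 counts, which left out 4 of 116 tdTomato+ and 4 of 208 tdTomato- neutrophil-like cells. Of the thinned cells 27.7% (19.6 to 36.9) of tdTomato+ and 9.31% (5.70 to 14.2) of tdTomato- neutrophil-like cells held at least 10 member counts. The shares were 20.7% (17.7 to 24.0) and 5.75% (2.79 to 10.3) in macrophage-like, 25.6% (20.8 to 30.9) and 11.5% (8.47 to 15.2) in monocyte-like, 3.03% (2.38 to 3.79) and 1.99% (1.61 to 2.44) in αβ T-like, and 0.749% (0.0908 to 2.68) and 0.507% (0.362 to 0.689) in γδ T-like cells (exact binomial intervals). These intervals take the cells of a library as separate draws. Cells are not replicates of a sort, so the intervals do not test a difference between sorts. The ratio of the variance to the mean of thinned member counts, which is 1 for counts drawn at random, was 13.7 and 5.45 in neutrophil-like, 7.23 and 6.49 in monocyte-like and 2.61 and 1.39 in macrophage-like cells. Neutrophil-like and monocyte-like cells thus held subsets of cells with very high levels in both libraries, and macrophage-like cells varied less.

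γδ T-like cells with high levels were few. A subcluster of Ncr1-like γδ T cells was led by *Gzmc*, *Icam1* and *Bcl3*, with the member *Ifit1* among its leading genes. It held 130 tdTomato- and 5 tdTomato+ cells, and the summed level of its tdTomato- cells was 2508 CPM. A single tdTomato- cell in it had a level of 701 in the unit used for single cells. The median over all tdTomato- γδ T-like cells was 12.4 in that unit. The summed level of the subcluster thus need not be that of a typical cell in it. In the 40 tdTomato- γδ T-like cells with at least 10 thinned counts, *Isg15* supplied 12.3% and *Ifi27l2a* 6.82% of member counts.

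The ligands themselves were rarely counted. Over both libraries 7 type I interferon genes on the list of ligands had 13 counts in tdTomato+ and 68 in tdTomato- cells. A single tdTomato- cell in an unnamed cluster led by *Mpo*, *Elane* and *Cd209a* held 52 of the 68, over 5 genes, with 72.7 member counts per 10000. One tdTomato- Ncr1-like γδ T cell, in the subcluster led by *Gzmc*, *Icam1* and *Bcl3*, held 5 counts of 1 type I interferon gene and 701 member counts per 10000. These cells were chosen after their values were seen. *Ifng*, the gene of interferon-γ, had 29912 and 72989 counts and was at 775 and 680 CPM in NK-like, 364 and 424 CPM in αβ T-like and 495 and 658 CPM in γδ T-like cells.

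Of 15 genes of receptors and signalling, 14 were measured in macrophage-like cells, and 0 of these were 2-fold higher or lower. The receptor chain *Ifnar1* stood at 77.5 and 83.3 CPM there and *Ifnar2* at 410 and 412 CPM. Over the 9 classes the median log2 ratio of this list lay between -0.16 and 0.07. *Ifnar2* was highest in pDC-like cells, at 761 and 720 CPM.

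Of 24 targets that respond mainly to interferon-γ, 21 were measured in macrophage-like cells, 20 with a ratio above 1 (all genes 43.3%), and 20 in neutrophil-like cells, of which 9 were at least 2-fold higher (all genes 6.77%) and 3 at least 2-fold lower (7.96%). *Gbp2*, a guanylate-binding protein that attacks the membranes of intracellular pathogens, stood at 288 and 65.5 CPM in neutrophil-like and 368 and 171 CPM in monocyte-like cells. *Cxcl10*, a chemokine for activated T cells, stood at 845 and 285 CPM in monocyte-like cells, and *Cxcl9* at 744 and 371 CPM. In B cell-like cells 8 of 19 had a ratio above 1, near the 45.9% of all genes. Of 10 genes of dissociation stress, 1 had a ratio above 1 in macrophage-like (all genes 43.3%), 3 in neutrophil-like (50.5%), 2 in αβ T-like (40.4%) and 7 in cDC1-like cells (50.7%). None was 2-fold higher in any of the 9 classes. In neutrophil-like cells 3 of them, *Jun*, *Hspa1a* and *Hspa1b*, were at least 2-fold lower (all genes 7.96%), and none was in the other classes.

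Across 40 combinations of class and library with at least 50 cells, 17 of the 38 members had a Pearson r above 0.7 between their log2(CPM + 1) and the mean of the other members. *Ifih1*, the RNA sensor MDA5, followed the others most closely (r = 0.89), and *Ifit2* came next (0.88). *Phf11b* did not follow them (-0.04), nor did *Isg20* (0.21) or *Mx1* (0.22). Of 11191 other genes with at least 20 CPM in 1 combination, the 10 most like the mean of the members were *Rnf213* (r = 0.86), *Mtus1* (0.84), *Hpcal1* (0.82), *Gbp5* (0.81), *Msr1* (0.80), *Znfx1* (0.80), *Irgm1* (0.80), *Gngt2* (0.80), *Tmem104* (0.78) and *Ifitm2* (0.78). The combinations share libraries and depth, so these correlations are descriptions across cell classes.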

How the data were processed

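Gene expression was measured with 10x 5′ single-cell libraries. The authors deposited raw UMI counts per gene and cell from Cell Ranger 10.0.0 on mm10, per the submitters' notes. Both count matrices were used as deposited, and 0 columns were left unused. The members and lists were chosen with earlier results of these data known. Kept cells had 300 genes or more and a mitochondrial share of up to 10% (17508 tdTomato+ and 18173 tdTomato-), with medians over all barcodes of 8955 and 7128 counts. Python 3.11.15, scanpy 1.11.5, leidenalg 0.10.2, numpy 2.4.6, scipy 1.17.1, pandas 2.3.3, scikit-learn 1.9.0 and matplotlib 3.10.9 were used. Clustering took 2000 variable genes without the members, 30 components, 15 neighbors and a resolution of 1. The doublet caller marked 1 cell and did not work, so doublets remain. Counts were summed per class and library, with exact Poisson intervals for levels and exact conditional binomial intervals for ratios, at 95%. A member was measured from 10 CPM in 1 library, and 2-fold was the size named, called after 0.5 was added to each count. The limit of 30 endothelial marker counts per 10000 was chosen after seeing the data. Members named with full values were those with the highest CPM in a class, the largest spread across classes or the largest ratio between libraries in a role group, and other named genes came from the lists of ligands, receptors and interferon-γ targets or were the 10 most correlated with the members. Class markers, and further members whose values were unusual, were chosen after their values were seen. Alternatives covered the filters, totals, thinning, clustering and endothelial limit. The scripts were tested on simulated data.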

Additional observations from a re-analysis of the deposited data

Results flagged for a closer look

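Naive CD4-like αβ T cells and Il17a-like γδ T cells stood out because their ratio between the libraries was not above 1, unlike that of the other classes. The log2 ratio of the summed level, tdTomato+ over tdTomato-, was -0.038 (-0.081 to 0.0055) in naive CD4-like cells, an interval that covers 0 and so shows no direction. In Il17a-like γδ T cells it was -0.16 (-0.30 to -0.02). With 1 library per sort, the difference from the other classes was not tested.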

How the results depend on the processing

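All 99 alternative log2 ratios, over 9 classes, kept tdTomato+ above tdTomato-, counting those taken as the median of the members' own ratios in place of the summed level. Of these 63 moved by less than counting error and 36 by more, and the cause was not tested. The values that moved follow, for ratios and for counts of members at least 2-fold higher unless stated otherwise. Without the most highly counted member of each class, the log2 ratio was 0.51 in macrophage-like, 0.63 in monocyte-like, 0.46 in pDC-like and 0.34 in αβ T-like. With members measured from 50 CPM, 2-fold members numbered 2 in macrophage-like, 4 in cDC1-like, 3 in pDC-like, 0 in B cell-like, 2 in NK-like and 0 in the classes summed (2-fold lower). With the endothelial limit at 10 per 10000, the log2 ratio was 0.63 in macrophage-like, 0.52 in monocyte-like and 1.33 in neutrophil-like, and 2-fold members numbered 3 in monocyte-like. With no endothelial limit, the log2 ratio was 0.48 in macrophage-like, 0.32 in monocyte-like, 0.87 in neutrophil-like, 0.55 in cDC1-like, 0.22 in pDC-like and 0.48 in B cell-like, and 2-fold members numbered 3 in monocyte-like, 14 in cDC1-like, 12 in pDC-like, 9 in B cell-like and 0 in the classes summed (2-fold lower). With the median of the members' own ratios, the log2 ratio was 0.55 in monocyte-like, 0.52 in pDC-like, 0.61 in NK-like, 0.32 in αβ T-like and 0.24 in γδ T-like. With cells thinned to 1000 counts, the log2 ratio was 0.50 in monocyte-like, 1.15 in neutrophil-like, 0.30 in cDC1-like, 0.082 in B cell-like, 0.30 in αβ T-like and 0.41 in γδ T-like, and 2-fold members numbered 2 in B cell-like, 4 in γδ T-like and 10 in the classes summed (2-fold lower). With the stricter cell filter, the log2 ratio was 0.82 in monocyte-like, 0.39 in pDC-like and 0.071 in NK-like, and 2-fold members numbered 10 in monocyte-like, 9 in pDC-like, 0 in B cell-like, 1 in NK-like and 2 in the classes summed (2-fold lower). At the coarser clustering, the log2 ratio was 0.79 in monocyte-like, 1.12 in neutrophil-like and 0.42 in αβ T-like, and 2-fold members numbered 8 in monocyte-like and 0 in γδ T-like. At the finer clustering, the log2 ratio was 0.63 in monocyte-like and 0.11 in γδ T-like, and 2-fold members numbered 0 in γδ T-like. With called doublets kept and the cells clustered again, the log2 ratio was 0.80 in monocyte-like and 0.16 in γδ T-like, and 2-fold members numbered 0 in γδ T-like. With no filter on low counts, 2-fold members numbered 13 in cDC1-like, 9 in pDC-like, 2 in B cell-like, 13 in NK-like, 3 in γδ T-like and 7 in the classes summed (2-fold lower). With mitochondrial, ribosomal protein and haemoglobin genes left out of the totals, the log2 ratio was 0.42 in αβ T-like. Among cells with a γ or δ contig, the log2 ratio was 0.16 in γδ T-like. The other endothelial limits and the contig subset were chosen after seeing the data. B cell-like cells formed no class at the coarser clustering, so that value was not computed. No paired analysis was possible because each sort had 1 library, and for the same reason no replicate could be left out. Precision in the smallest classes was limited by depth, with as few as 51 cells.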

Other observations

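Erythroid cells, which belong to none of the comparisons above, held the 38 genes at 2821 CPM (104 tdTomato+ cells) and 1842 CPM (25 tdTomato- cells). The endothelial markers summed to 9916 and 516 CPM in these cells, and their part in the levels was not tested. *Bst2*, abundant in endothelium, supplied 21.8% of the tdTomato+ member counts, *Rsad2* 12.3% and 25.6% in the respective libraries, and *Isg20* 10.1% and 29.0%. Mesenchymal cells of the tdTomato+ library, in which the endothelial markers summed to 6255 CPM, held 3341 CPM in 77 cells, with *Bst2* at 24.4% and *Ifi27l2a* at 20.2% of the member counts. For plasma cells the levels were 1352 CPM (27 tdTomato+ cells) and 1234 CPM (65 tdTomato- cells), of which *Ifi27l2a* made up 47.5% and 44.1%.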
